A study of Mus musculus with 6 samples.

Results

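The 10 genes described here carry and limit the TGF-β signal inside the cell, or are well-known targets of it. They are Smad2 and Smad3, the inhibitory Smad7, the repressors Ski, Skil and Tgif1, the membrane protein gene Pmepa1, the ubiquitin ligase genes Smurf1 and Smurf2, and the transcription factor gene Bhlhe40. They were chosen by name, and all 10 were found among 24346 gene symbols. RNA came from primary stromal cells of the prostates of C57BL/6 mice aged 8 to 12 weeks, grown on collagen in medium with 1e-10 M dihydrotestosterone, an androgen. Cells of 3 libraries carried the lentiviral vector FU-CGW without an insert (vec in the labels). Cells of 3 other libraries carried that vector with S37A β-catenin, a form that lacks a serine through which the protein is normally marked for breakdown. The strain, the medium and the viral vector are common to both groups. The labels give neither the share of cells that took up virus nor a separate animal or culture for each library, so the spread behind the p-values may be that of technical repeats.

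TGF-β binds a pair of receptor kinases that phosphorylate Smad2 and Smad3, which join Smad4, enter the nucleus and change transcription together with other factors. The pathway has several brakes, some of which it switches on itself. Smad7 blocks the receptors and brings Smurf ligases to them. Ski and SnoN (the product of Skil) keep Smad complexes from activating genes, and the Pmepa1 protein holds Smad2 and Smad3 away from the receptor. In stroma this pathway is known for its control of smooth muscle and matrix genes, and it is known to meet Wnt signalling at many shared targets.

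The deposited unit is FPKM, which relates the fragments of a transcript to its length and to the mapped total of the library. Widths of the deposited confidence intervals correspond to 46.7 to 51.5 M fragments in vector libraries and 41.1 to 47.3 M in S37A libraries. No library stood apart, since the root-mean-square log2 deviation of each library from the others of its group was 0.20 to 0.23. Axin2, a direct Wnt target that serves as a check of the labels, stood at 0.131 ± 0.0385 FPKM in vector and 2.95 ± 0.296 FPKM in S37A (SD, n = 3). Ctnnb1, the gene name for β-catenin, stood at 110.4 ± 9.79 and 141 ± 7.73 FPKM (limma, described below, adjusted p = 0.0158). It was not called without S37A replicate 2 or without S37A replicate 3 (limma adjusted p up to 0.0585). Reads of the β-catenin sequence on the virus may be counted under Ctnnb1, so this value does not separate them from RNA of the cells' own gene. All 12 stromal markers together came to between 7458 and 7932 FPKM in vector and between 8601 and 8869 FPKM in S37A. Limma called 4 of the 11 tested higher (Thy1, Acta2, Myh11 and Des) and 1 lower (Pdgfra), so they did not move as one in this fit. The shares over all genes tested were 6.06% higher and 19.9% lower. The stromal split was 6 higher and 0 lower with median-ratio scaling and 7 and 1 with sample weights. It was 2 and 1 with the replicate number as a block, and 2 and 0 without S37A replicate 3. Among 10 tested markers of myeloid and immune cells 8 were called higher and 0 lower, against 6.06% higher and 19.9% lower of all genes. The 16 found in the files summed to 24.0 to 30.3 FPKM in vector and 61.1 to 69.5 FPKM in S37A. Ptprc, Itgam, Adgre1, Aif1, Cd3e and Cd79a stayed under 0.5 FPKM in every library. In such bulk samples, a change in the number of cells of a type and a change in RNA per cell cannot be told apart. The 10 epithelial markers summed to 18.0 to 23.9 FPKM in vector and 16.1 to 25.6 FPKM in S37A, and the 8 endothelial markers to 100.2 to 114 FPKM and 96.3 to 100.3 FPKM. By limma none of the 7 epithelial and 8 endothelial markers tested was called, with 1 higher epithelial and 1 lower endothelial marker at an unadjusted p under 0.05.

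In S37A cells Smad3 and Smurf1 fell, Bhlhe40 rose, and the other 7 genes did not pass the test. A gene was called where limma, fitted over the 12022 genes whose mean reached 0.5 FPKM, gave a Benjamini-Hochberg adjusted p under 0.05 for the difference in log2(FPKM + 1). All 10 genes passed the filter. Over all tested genes 6.06% were called higher and 19.9% lower in S37A, or 729 and 2393 genes, so that 1 higher and 2 lower among 10 genes is near the background. These splits moved with the scaling of the libraries: 1339 genes were higher and 890 lower with median-ratio scaling, 1094 and 957 with quantile normalization, and 936 and 1513 when totals left out the 100 most abundant genes. Among the 10 genes the groups did not overlap for Bhlhe40 and Pmepa1, both higher in S37A, and for Smad2, Smad3, Ski and Smurf1, lower in S37A. Of all genes tested, 11.3% were higher and 36.5% lower without overlap. The median log2 difference was -0.03 for the 10 genes and -0.07 for all genes, which makes a small negative difference common in these libraries.

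**Figure D1:**
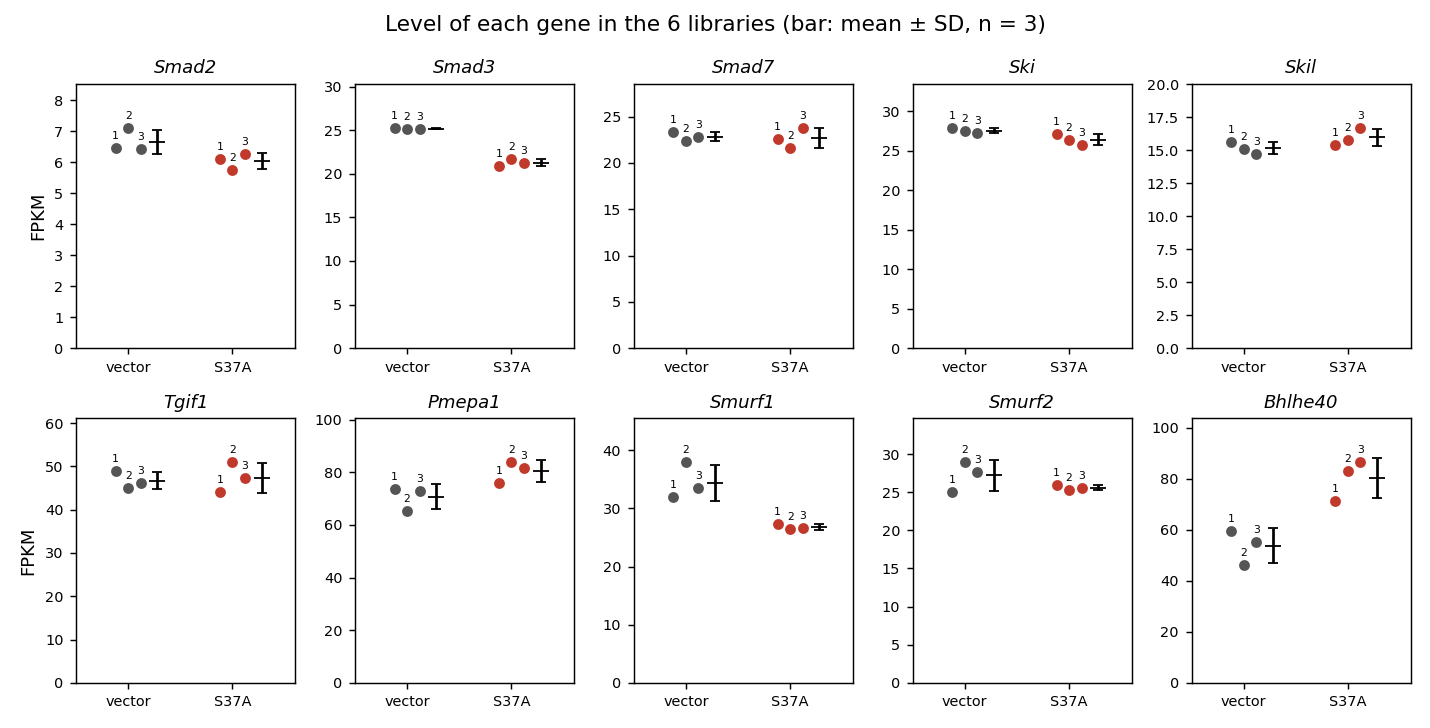
Level in FPKM (vertical axes from 0) of the 10 genes in the vector and S37A libraries, with replicate numbers beside the points and mean ± SD (n = 3) as bars. The S37A points lie wholly below the vector points for Smad3 and Smurf1 and wholly above them for Bhlhe40 and Pmepa1.

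Mean FPKM over the 6 libraries is scaled to length, but whether coverage was even along transcripts was not checked, so the order of genes is approximate. By this measure the levels ran from 75.5 FPKM for Pmepa1 through Bhlhe40 (67.1 FPKM) and Tgif1 (47.1 FPKM) down to Skil (15.5 FPKM) and Smad2 (6.34 FPKM). Smurf1, Ski, Smurf2, Smad3 and Smad7 stood between 30.6 and 22.7 FPKM, and the ranges of neighbours among these 5 genes overlapped. Tgif1 lay above Smurf1, Smad7 above Skil, and Skil above Smad2 without overlap over the 6 libraries. Pmepa1 exceeded Bhlhe40 in 5 of 6 libraries, and their ranges overlapped.

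**Figure D2:**
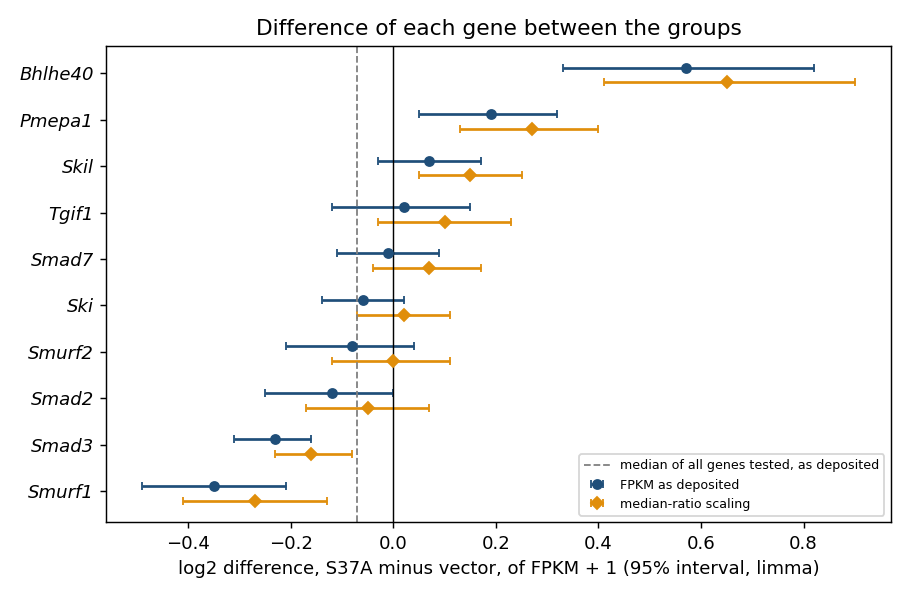
Log2 difference of each gene, S37A minus vector, of FPKM + 1 with its 95% limma interval, for FPKM as deposited and after median-ratio scaling; the dashed line is the median of all genes tested. Bhlhe40 (0.57), Smad3 (-0.23) and Smurf1 (-0.35) have intervals away from 0 under both scalings, as has Pmepa1 (0.05 to 0.32 as deposited), which missed the adjusted threshold as deposited.

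Smad3, which encodes the receptor-activated Smad that binds DNA directly, fell in S37A. The gene lies on chromosome 9 from 63646767 to 63757994 (mm10, minus strand, protein-coding). It stood at 25.3, 25.2 and 25.1 FPKM in vector libraries and at 20.9, 21.7 and 21.3 FPKM in S37A libraries. The vector values were nearly level, and every S37A value lay below all of them. Its log2 difference was -0.23 (SE 0.03, limma adjusted p = 0.00668), with a mean FPKM in S37A of 0.845 times that in vector. Each deposited confidence interval reached 2.50% to 2.99% of the value to either side. Permuting the 6 values exactly (two-sided) gave p = 0.1, which is as small as this design can give. Under the 3 other scalings the log2 difference was -0.16, -0.18 and -0.20 (median-ratio, quantile, and without the 100 most abundant genes), and Smad3 was called in all 17 alternatives (adjusted p from 0.00159 to 0.036).

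Smad2, the closest relative of Smad3, was the gene with the lowest level of the 10. It lies on chromosome 18 from 76241580 to 76310963 (plus strand). Its level was 6.47, 7.11 and 6.41 FPKM in vector and 6.09, 5.74 and 6.25 FPKM in S37A. The S37A values were all lower, by a margin smaller than the range within either group. The log2 difference of -0.12 (95% interval -0.25 to 0.00) did not pass (limma adjusted p = 0.115), and it was -0.05 with median-ratio scaling. All of its FPKM was given to the model NM_010754, and the model NM_001252481 was listed at 0 in every library.

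The ratio of Smad3 to Smad2 within a library does not depend on the scaling between libraries. It was 3.91, 3.55 and 3.92 in vector and 3.43, 3.78 and 3.41 in S37A, and these groups overlapped. Its log2 value differed by -0.10 (exact permutation p = 0.2, adjusted p = 0.2 over the 3 pairs of related genes compared). A larger fall of Smad3 than of Smad2 was therefore not shown.

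Smad7, the inhibitory Smad and a rapid target of the pathway it blocks, differed little between the groups. It lies on chromosome 18 from 75367529 to 75395935 (plus strand). Its level was 23.3, 22.4 and 22.8 FPKM in vector and 22.6, 21.6 and 23.8 FPKM in S37A. The highest and the lowest of the 6 values were both S37A libraries. Its log2 difference was -0.01, with a 95% interval from -0.11 to 0.09 (limma adjusted p = 0.877), and its sign turned to 0.07, 0.05 and 0.02 under the 3 other scalings.

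Smurf1, which encodes a ubiquitin ligase of receptors, Smads and the GTPase RhoA, had the largest fall of the 10 genes. It lies on chromosome 5 from 144876495 to 144965847 (minus strand). Its level was 31.9, 37.9 and 33.5 FPKM in vector and 27.3, 26.4 and 26.6 FPKM in S37A. The S37A libraries lay within 1 FPKM of each other and below every vector library, whose highest value was that of replicate 2. S37A was lower by a log2 difference of -0.35 (SE 0.06; adjusted p from limma = 0.0113), with a mean FPKM in S37A of 0.777 times that in vector. It was -0.28 without vector replicate 2 and -0.27, -0.31 and -0.31 under the 3 other scalings. All 17 alternatives called it, with adjusted p from 0.0019 to 0.0461.

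The deposited files split Smurf1 between 2 transcript models, which differ in the coding sequence by an in-frame segment of 9 bases, or 3 codons, at the edge of an exon (chr5:144880701-144880709, mm10, minus strand). The segment is shown because it is what separates the 2 models in the coding sequence. Capitals mark the 9 bases and lower case the 15 coding bases on either side, from the GENCODE M21 transcripts that correspond to these models.
NM_001038627: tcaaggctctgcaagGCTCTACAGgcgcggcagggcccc
NM_029438: tcaaggctctgcaaggcgcggcagggcccc

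The longer Smurf1 model, of 731 codons, stood at 24.9, 29.3 and 25.2 FPKM in vector and 22.2, 19.6 and 20.3 FPKM in S37A. The shorter, of 728 codons, stood at 6.98, 8.51 and 8.28 FPKM in vector and 5.14, 6.72 and 6.29 FPKM in S37A. Neither model overlapped between the groups. Both log2 differences were -0.34, but in a fit over 14550 transcript models, of which 2.62% were called higher and 5.29% lower, neither passed (limma adjusted p = 0.056 and 0.105). The share of the longer model was 77.0% ± 1.49 in vector and 77.3% ± 3.45 in S37A (SD, n = 3; exact permutation p = 0.9), so the balance of the models differed by less than its spread. Since the models differ by so short a segment, the split of reads between them is an estimate.

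Smurf2, the other ligase of the pair, did not pass. It lies on chromosome 11 from 106820066 to 106920715 (minus strand) and has 1 model in the files. Its level was 25.0, 28.9 and 27.7 FPKM in vector and 26.0, 25.3 and 25.5 FPKM in S37A. The lowest vector library lay below every S37A library. Its difference of -0.08 on the log2 scale (95% interval -0.21 to 0.04, limma adjusted p = 0.269) became 0.00 with median-ratio scaling. Without vector replicate 1, the lowest of its group, Smurf2 was called lower (log2 difference -0.14, adjusted p = 0.0409).

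Within each library Smurf2 was below Smurf1, and the gap was narrower in S37A. The ratio of Smurf2 to Smurf1 was 0.786, 0.764 and 0.825 in vector and 0.951, 0.962 and 0.959 in S37A. The S37A ratios were nearly equal to each other and all above the vector ratios. Their log2 values differed by 0.27 (exact permutation p = 0.1, the smallest possible; adjusted p = 0.15 over 3 pairs), and by 0.25 to 0.30 with any 1 library left out.

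RefSeq (GRCm38.p6, the assembly of mm10) gave promoter entries for 5 of the 10 genes: Ski, Smurf1, Smad3, Smurf2 and Tgif1. The 250 bases before the RefSeq start sites of Smad3 and Smurf1 are shown because both genes fell, and those of Smurf2 as the relative that was not called. For Smurf1 the GENCODE span given above begins inside this window, so the start sites of the sources differ. Matches were sought on both strands to CAGAC (or GTCTG), the box that Smad3 and Smad4 bind, and to CTTTGA (or TCAAAG), the core that TCF and LEF factors bind; the motifs share no overlap with each other here. Capitals mark every match, 5′ to 3′ on the strand of the gene.
Smad3 (chr9:63757995-63758244): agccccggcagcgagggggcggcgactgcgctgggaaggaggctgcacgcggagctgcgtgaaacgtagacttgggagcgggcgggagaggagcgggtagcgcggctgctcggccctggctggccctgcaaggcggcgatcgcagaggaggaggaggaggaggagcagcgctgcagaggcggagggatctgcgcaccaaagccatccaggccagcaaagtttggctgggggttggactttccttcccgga
Smurf1 (chr5:144965831-144966080): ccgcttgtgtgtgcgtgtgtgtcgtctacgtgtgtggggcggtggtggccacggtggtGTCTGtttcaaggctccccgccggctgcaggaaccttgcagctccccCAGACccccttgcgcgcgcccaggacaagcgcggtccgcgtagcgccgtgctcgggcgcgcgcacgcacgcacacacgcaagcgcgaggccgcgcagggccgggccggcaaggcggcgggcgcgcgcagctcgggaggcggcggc
Smurf2 (chr11:106920716-106920965): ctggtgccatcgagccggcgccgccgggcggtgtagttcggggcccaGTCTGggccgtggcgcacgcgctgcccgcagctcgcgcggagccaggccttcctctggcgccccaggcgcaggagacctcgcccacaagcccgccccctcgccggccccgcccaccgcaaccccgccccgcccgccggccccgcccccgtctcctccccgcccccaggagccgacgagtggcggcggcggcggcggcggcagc

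The Smurf1 window held 2 matches to the Smad box, that of Smurf2 held 1, and that of Smad3 held 0. None of these 3 windows held the TCF core. Of the windows not shown, those of Tgif1 held up to 2 matches to each motif, and that of Ski held 0. Of 32851 mouse promoter windows of the same length, 42.2% held a match to the Smad box and 13.8% to the TCF core. A match to the Smad box is therefore common in windows of this length, and lack of the TCF core is usual. A match of letters is a description of the window and not a bound site, and no match says only that these letters are not in it.

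Ski, Skil and Tgif1, which encode nuclear repressors of Smad-dependent transcription, were not called in either direction. Ski lies on chromosome 4 from 155154075 to 155222592 (minus strand). It stood at 27.9, 27.5 and 27.2 FPKM in vector and 27.1, 26.3 and 25.7 FPKM in S37A. Every S37A value was lower, by a margin smaller than the range within either group. On the log2 scale the difference was -0.06 (95% interval -0.14 to 0.02, limma adjusted p = 0.234), and it was 0.02 with median-ratio scaling.

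Skil lies on chromosome 3 from 31095058 to 31122577 (plus strand) and encodes SnoN. Its summed level was 15.6, 15.1 and 14.7 FPKM in vector and 15.4, 15.8 and 16.7 FPKM in S37A. The groups overlapped by 1 library on each side. Skil differed by 0.07 on the log2 scale (95% interval -0.03 to 0.17, limma adjusted p = 0.23). It was 0.15 with median-ratio scaling and 0.12 with sample weights, and it was called under both (adjusted p = 0.0447 and 0.0376). The ratio of Skil to Ski was 0.559, 0.548 and 0.540 in vector and 0.568, 0.599 and 0.648 in S37A. These ratios did not overlap, and their log2 values differed by 0.14 (exact permutation p = 0.1; adjusted p = 0.15 over 3 pairs).

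Skil was split between the models NM_011386 and NM_001039090, which differ by an in-frame coding segment of 138 bases, or 46 codons (chr3:31113503-31113640, mm10, plus strand). It is shown because the share given to each form varied widely between libraries. Capitals mark the 138 bases, flanked by 15 coding bases in lower case, from the matching GENCODE M21 transcripts.
NM_011386: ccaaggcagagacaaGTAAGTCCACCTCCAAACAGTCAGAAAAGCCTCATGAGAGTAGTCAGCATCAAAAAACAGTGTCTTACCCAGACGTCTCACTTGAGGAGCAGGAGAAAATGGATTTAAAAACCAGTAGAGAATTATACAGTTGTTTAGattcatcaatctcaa
NM_001039090: ccaaggcagagacaaattcatcaatctcaa

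The Skil model with the segment, of 675 codons, took 43.9%, 49.3% and 38.7% of the gene's FPKM in vector and 50.6%, 28.3% and 42.1% in S37A. The form without it, of 629 codons, took the rest, and the third model, NM_001271772, was listed at 0 in all libraries. The lowest and the highest share both came from S37A libraries, replicates 2 and 1. Mean shares were 44.0% ± 5.31 and 40.3% ± 11.3 (SD, n = 3; exact permutation p = 0.7). In S37A replicate 2 the 2 models stood at 4.46 and 11.3 FPKM while their sum, 15.8 FPKM, lay between those of the other S37A libraries, so the sum was steadier than its parts.

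Tgif1 lies on chromosome 17 from 70844205 to 70853546 (minus strand) and encodes a homeodomain repressor. Its summed level was 49.0, 45.0 and 46.2 FPKM in vector and 44.0, 50.9 and 47.3 FPKM in S37A. The lowest and the highest of the 6 values were both in S37A. For Tgif1 the log2 difference was 0.02 (95% interval -0.12 to 0.15, limma adjusted p = 0.834). Of its 5 models, which begin at different start sites, NM_009372 took 60.7% to 68.4% of the FPKM in every library, and NM_001164076 and NM_001164077 were listed at 0 throughout. NM_001164075 was listed at 5.36 FPKM in vector replicate 2 and at 5.96 and 7.07 FPKM in S37A replicates 1 and 3, but at 0 in the other 3 libraries. Since genes and models can be listed at 0 through the way reads are assigned among overlapping models, no fold is given for it. The 3 libraries that list it had 9.79 to 12.3 FPKM of NM_001164074, and the 3 that do not had 14.6 to 17.7 FPKM.

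**Figure D3:**
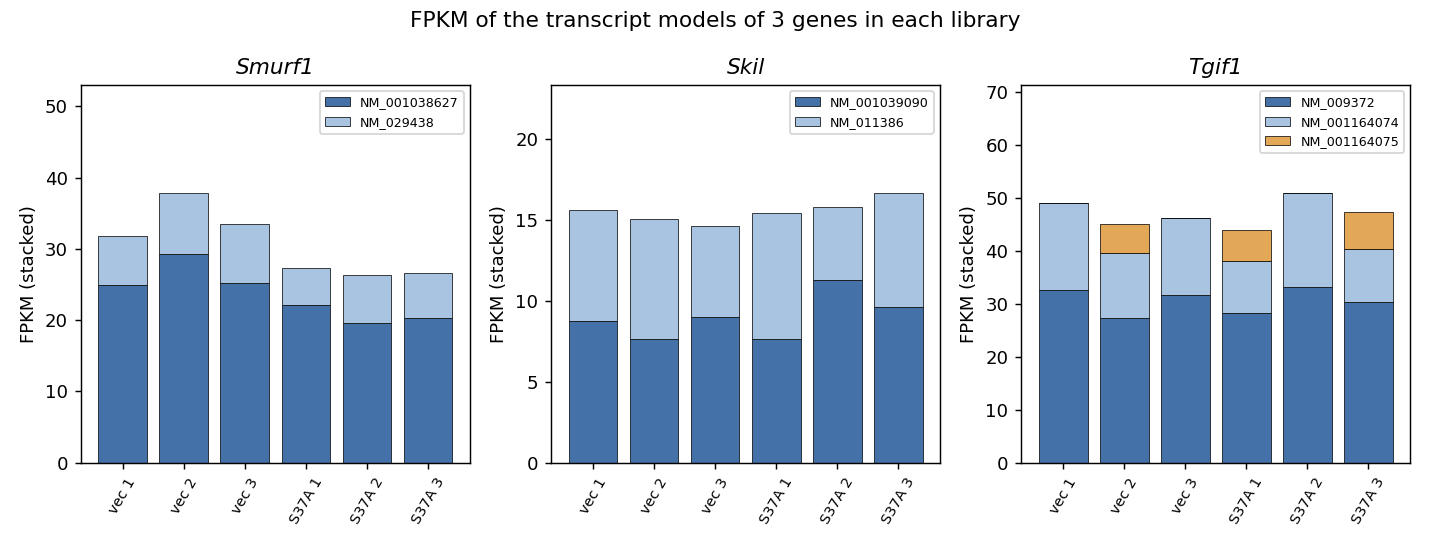
FPKM of the transcript models of Smurf1, Skil and Tgif1 in each library, stacked so that the bar height is the gene's summed FPKM; models listed at 0 in every library are left out. The S37A values of each Smurf1 model lie below its vector values though neither passed its test, the 2 Skil models are farthest apart in S37A replicate 2 (4.46 and 11.3 FPKM), and the third Tgif1 model appears in 3 of 6 libraries.

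Pmepa1, the most abundant of the 10 genes, is a target of TGF-β and of androgens whose product limits Smad2 and Smad3. It lies on chromosome 2 from 173224458 to 173276533 (minus strand). Its level was 73.7, 65.2 and 73.0 FPKM in vector and 75.8, 83.7 and 81.7 FPKM in S37A. All S37A libraries were above all vector libraries, with vector replicate 2 the lowest of the 6. The log2 difference was 0.19 (SE 0.06, 95% interval 0.05 to 0.32), and it narrowly missed the threshold (limma adjusted p = 0.0542; unadjusted p = 0.0148). It was called in 6 of 17 alternatives: under each of the 3 other scalings (log2 differences 0.27, 0.21 and 0.22; adjusted p = 0.0237, 0.0393 and 0.0347), with sample weights (adjusted p = 0.0162), without vector replicate 1 (0.0494) and without S37A replicate 1 (0.0484). Without vector replicate 2 the log2 difference was 0.13 and the adjusted p 0.116.

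Bhlhe40, which encodes a basic helix-loop-helix repressor that also acts in the circadian clock and in immune cells, had the largest difference of the 10 genes. It lies on chromosome 6 from 108660629 to 108666925 (plus strand). Its level was 59.6, 46.2 and 55.4 FPKM in vector and 71.4, 83.2 and 86.4 FPKM in S37A. The lowest S37A library stood well above the highest vector library. This was a log2 difference of 0.57 (SE 0.10; limma adjusted p = 0.0121) and a ratio of mean FPKM of 1.49. It was 0.65, 0.60 and 0.61 under the 3 other scalings and 0.47 without vector replicate 2, and all 17 alternatives called it (adjusted p from 0.00186 to 0.0471). The exact permutation test gave p = 0.1, the smallest possible. The antisense gene 0610040F04Rik overlaps an exon of Bhlhe40, the kit does not mark the strand, and the files list that gene at 0 in every library. A listed 0 can come from the way reads are assigned among overlapping models. The part of antisense reads in the level of Bhlhe40 was therefore not measured. The summed myeloid and immune markers given above moved in the same direction, and their part in the rise of Bhlhe40 was not tested.

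**Figure D4:**
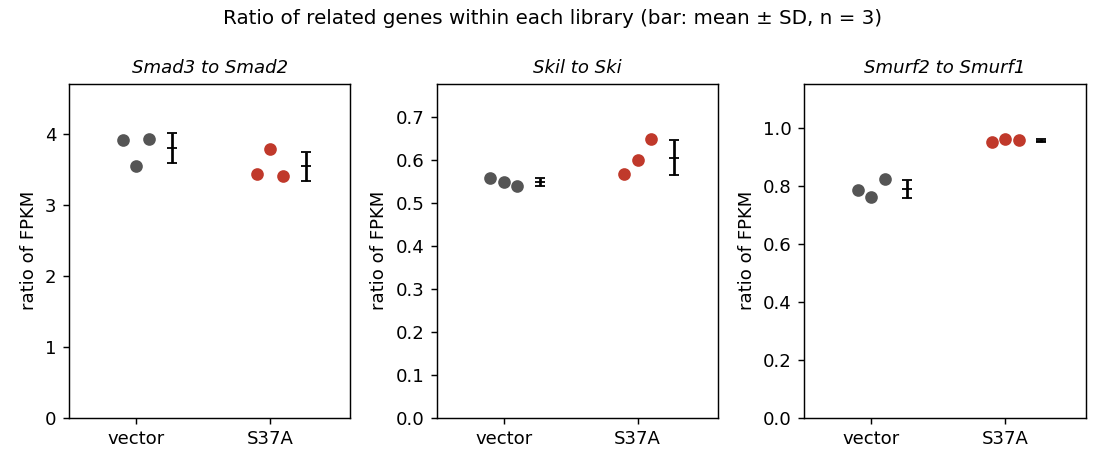
Ratio of FPKM of related genes within each library, for Smad3 to Smad2, Skil to Ski and Smurf2 to Smurf1, with mean ± SD (n = 3) as bars and vertical axes from 0. The groups are apart for Smurf2 to Smurf1 (0.764 to 0.825 against 0.951 to 0.962) and for Skil to Ski, and overlap for Smad3 to Smad2.

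Of 9 tested receptors and co-receptors of the pathway 2 rose and 2 fell, against 6.06% higher and 19.9% lower of all genes, with a median log2 difference of -0.09; with the replicate block 0 were higher and 1 lower. Tgfbr2, the ligand-binding kinase, went from 27.6 ± 1.49 to 33.0 ± 1.49 FPKM (limma adjusted p = 0.0161), and Tgfbr1, the kinase that phosphorylates Smad2 and Smad3, from 9.41 ± 0.112 to 10.7 ± 0.399 FPKM (adjusted p = 0.0233). Without S37A replicate 2, without S37A replicate 3 or with the replicate number as a block neither was called (adjusted p of Tgfbr2 0.0568, 0.0604 and 0.0502), and Tgfbr1 was also not called without vector replicate 2 or 3 (adjusted p = 0.058 and 0.0608). The co-receptor gene Tgfbr3 fell from 2.76 ± 0.194 to 2.04 ± 0.0181 FPKM (adjusted p = 0.0106) and was called in all 16 alternatives that tested it. Acvrl1, a receptor kinase gene of endothelium, stood at 18.0 ± 0.156 and 16.0 ± 0.569 FPKM and lost its call in 9 of 17 alternatives, namely each other scaling, the replicate block, the most abundant model only, and the omission of replicate 2 or 3 of either group (adjusted p from 0.0506 to 0.532). Of 8 ligand genes 3 rose and 1 fell (median 0.17; the same shares of all genes apply), or 5 and 1 with median-ratio scaling and 3 to 4 and 1 in the other alternatives.

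None of the 4 other Smad genes tested was called by limma, and 1 was higher at an unadjusted p under 0.05; 1 was called higher with median-ratio scaling, quantile normalization or sample weights. Smad4, the shared partner, stood at 21.0 ± 0.163 and 21.1 ± 0.745 FPKM (log2 difference 0.00, 95% interval -0.08 to 0.09, limma adjusted p = 0.927). The inhibitory Smad6, which acts mainly on BMP signals, stood at 3.43 ± 0.477 and 3.18 ± 0.251 FPKM (adjusted p = 0.515). Of 25 other Smad partners and regulators 0 rose (1 at an unadjusted p under 0.05) and 6 fell, against 6.06% higher and 19.9% lower of all genes, with a median log2 difference of -0.09 against their -0.07. This count was 3 higher and 2 lower with median-ratio scaling, 1 and 1 with quantile normalization, 0 and 2 with the replicate block, and 1 and 3 without S37A replicate 1. With 0 higher in each case, it was 1 and 3 lower when replicate 2 or replicate 3 of the vector group was omitted, and 2 and 0 lower when replicate 2 or replicate 3 of S37A was. Nedd4l, a ligase of the same family as the Smurf genes, fell from 4.79 ± 0.223 to 3.79 ± 0.167 FPKM (adjusted p = 0.0125; 0.0529 without S37A replicate 3). Zfyve9, which encodes the anchor SARA that presents Smad2 and Smad3 to the receptor, fell from 9.43 ± 0.684 to 7.75 ± 0.397 FPKM (adjusted p = 0.0241), and was not called with median-ratio scaling, with quantile normalization, or without vector replicate 2, S37A replicate 1 or S37A replicate 3 (adjusted p from 0.0553 to 0.0814).

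Of 33 other genes that TGF-β induces in fibroblasts, 9 rose and 2 fell, against 6.06% higher and 19.9% lower of all genes, with a median log2 difference of 0.15. The number that rose was 17 with median-ratio scaling, 15 with sample weights, 13 without the 100 most abundant genes in the totals, 8 with quantile normalization, 5 without a filter and 6 with the replicate block. Without vector replicate 3, S37A replicate 2 or S37A replicate 3 it was 6, 4 and 6. Among the members that rose in the fit of all 6 libraries were Ctgf, Cyr61, Acta2, Tagln, Cnn1, Col5a1, Cdkn2b and Il11, and those that fell were Snai1 and Snai2, which encode repressors of epithelial genes; 0 fell with quantile normalization or without vector replicate 3 or S37A replicate 1, and 1 with median-ratio scaling or without any other 1 library. Cyr61, a matrix-associated signalling protein, rose from 524 ± 27.3 to 620.4 ± 2.93 FPKM (adjusted p = 0.011), and was called in all 17. Several of these genes are also smooth muscle genes, and stromal markers summed higher in S37A (values above). That marker list shares Acta2, Col1a1, Col1a2 and Col3a1 with this one, so its sum is partly made of the same values. The part of smooth muscle genes and stromal markers in these differences was not tested. Of 10 BMP-induced genes 4 rose (Id1, Id2, Id3 and Hey1) and 0 fell (1 at an unadjusted p under 0.05), against the same 6.06% and 19.9% of all genes, with a median of 0.09; 2, 1 and 1 rose without vector replicate 2, vector replicate 3 and S37A replicate 3.

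**Figure D5:**
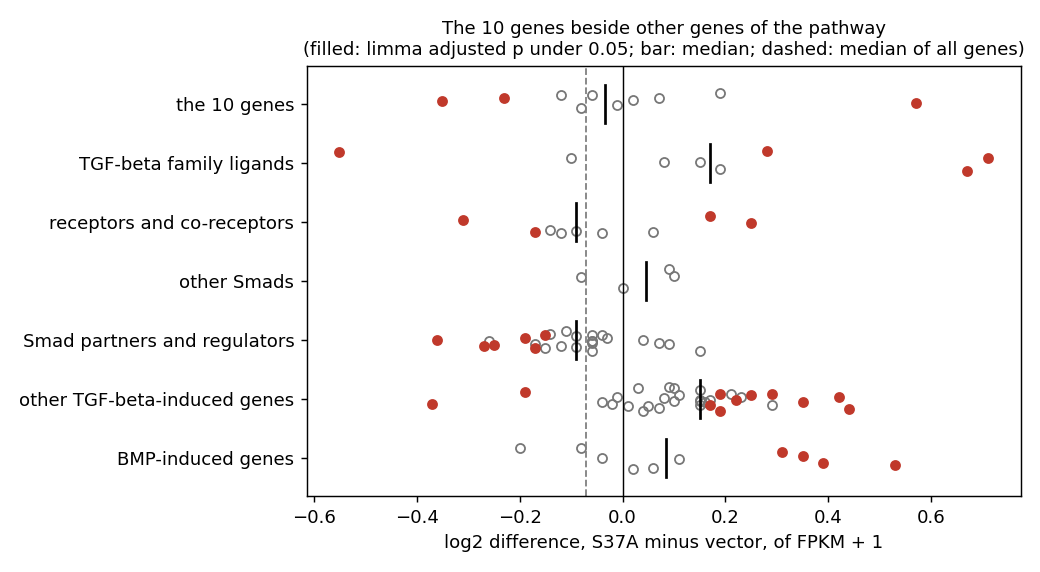
Log2 difference, S37A minus vector, of FPKM + 1 for the 10 genes and for 6 lists of other genes of the pathway; each point is a gene, filled where limma gave an adjusted p under 0.05, and bars are list medians. The lists of ligands and of TGF-β-induced genes have medians of 0.17 and 0.15, and the 10 genes and the Smad partners have medians of -0.03 and -0.09, near the -0.07 of all genes (dashed).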

How the data were processed

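RNA of 6 libraries was measured, 3 per group by sample title. Per the labels' protocols, a SMART-Seq v4 kit made the cDNA for Illumina sequencing. The submitters' processing notes name bcl2fastq 1.8.3, TopHat, Cufflinks and mm10; versions of the last 2 are not given in the sources used here. Per the file headers, the authors deposited FPKM and its confidence bounds for 34535 transcript models, with a coverage signal that was deposited but entered no test. FPKM were summed by gene symbol, and 5 genes with a status other than OK were left out. Differences are S37A minus vector in log2(FPKM + 1), tested with limma 3.58.1 (R 4.3.3, intensity trend) in 12022 genes (mean FPKM of 0.5 or more) and adjusted over all of them at 0.05; the scale understates changes of low genes. No count model was run. Depth was inferred from interval widths of single-model genes over 5000 bases, taking these widths as counting error. The deposited intervals can also hold error of read assignment, and they do not cover the spread between libraries. Ratios and shares were compared by exact permutation tests (Python 3.11.15). Positions are from GENCODE M21 (1-based). The script was tested on simulated data. The genes, lists and tests were chosen with earlier results of these data known. Named are the 10 genes; from the lists, called genes without overlap of the groups, at most the 4 with the smallest p per list (some only counted here); Tgfb1, Tgfb2 and Tgfb3 (counted among the ligands), Tgfbr1, Tgfbr2, Smad4 and Smad6; and Ctnnb1 and Axin2. Ctgf, Acta2, Tagln, Cdkn2b, Snai1 and Snai2, and the called stromal markers Thy1, Myh11, Des and Pdgfra, were named after their values were seen. A gene that the rule also names is not reported here. Alternatives changed the pseudocount, filter, scaling, trend, weights, pairing, the use of transcript models and the libraries included.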

Additional observations from a re-analysis of the deposited data

How the results depend on the processing

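The calls of Smad3, Smurf1 and Bhlhe40 held in all 17 alternatives. Among the 10 genes the number called higher, 1, was 3 with median-ratio scaling or sample weights, 2 with quantile normalization or when totals left out the 100 most abundant genes, and 1 to 2 with 1 library left out; the number lower, 2, was 2 to 3 with 1 library left out. Over all genes, 729 higher and 2393 lower became 1339 and 890 with median-ratio scaling, 1094 and 957 with quantile normalization, 936 and 1513 without the 100 most abundant genes in the totals, 1238 and 3655 with sample weights, 522 and 1491 with the most abundant model only, and 298 to 747 and 606 to 2401 with 1 library left out. The sign of Smad7, -0.01, turned to 0.07, 0.05 and 0.02 under the 3 other scalings and 0.01 with sample weights, and its range with 1 library left out was -0.04 to 0.02. Ski turned to 0.02 with median-ratio scaling and Smad6 to 0.01 with quantile normalization; Tgif1 ran from -0.03 to 0.07 and Smad4 from -0.02 to 0.03 with 1 library left out. None of these was called, and the cause was not tested. The Skil to Ski difference of 0.14 was 0.22 with the most abundant model only, where Skil is represented by the model NM_001039090 alone; with 1 library left out, the log2 ratio differences were -0.15 to -0.07 (Smad3 to Smad2), 0.09 to 0.18 (Skil to Ski) and 0.25 to 0.30 (Smurf2 to Smurf1). Of the transcript models 1 was called higher (Bhlhe40) and 1 lower (Smad3), with 0 higher and 0 to 1 lower whichever library was left out (1 to 3 and 2 to 4 at an unadjusted p under 0.05). Same-numbered libraries correlated at -0.12, 0.02 and 0.10 in their deviations, so the numbers were not taken as pairs; with the replicate block 442 genes were higher and 1193 lower, the 10 genes kept 1 higher and 2 lower, and limma called 0 of their transcript models either way (1 higher and 3 lower at an unadjusted p under 0.05). The deposited intervals reached 1.59% to 4.76% to either side for the 6 genes with 1 model, up to 6.05% for Smad2, at most 8.66% for models of Smurf1 and Skil, and at most 13.7% for those of Tgif1.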
